A study of Homo sapiens with 8 samples.

Results

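PLAC1 and LEMD1 are 2 of the 34809 gene names on a human expression array, and are described here in HuCCT1 cells, an established line of intrahepatic cholangiocarcinoma, a cancer of the bile ducts within the liver. All cells carried a short hairpin vector. The shControl and shNontarget vectors are labelled control, and shBEX2-1 and shBEX2-2 are directed at BEX2, a small X-linked gene whose loss the study examined for its part in dormant cancer stem cells. Each of the 4 vectors was measured on 2 arrays, which gave 4 control and 4 BEX2-knockdown arrays, each of 58717 spots that are not controls. The study's methods describe a hairpin against luciferase as control without saying which label it has, and the BEX2 target sequences they print for the 2 hairpins are reverse complements of each other apart from their end bases. Whether a vector's 2 arrays stand for separate cultures is not given in the labels, so that the spread and the p-values below may be technical only.

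PLAC1 and LEMD1 were picked by name because they stood near both ends of the changes on these arrays. Among the 20464 genes tested, PLAC1 had rank 17 of the rises. LEMD1 had rank 3 of the falls, by readings that in the knockdown are replacement values at background, so that its rank is only how it came to be picked. Their differences between vectors are therefore described without a test.

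PLAC1, placenta-specific 1, encodes a secreted or membrane-associated protein of the trophoblast that holds part of a zona pellucida domain, a module by which proteins of the egg coat and of some epithelia polymerise. Its gene lies on the X chromosome, is needed for the normal growth of the placenta, is nearly silent in other adult tissues apart from the testis, and is switched on in many tumours. LEMD1 belongs to the LEM-domain proteins, most of which sit in the inner nuclear membrane and hold chromatin to the lamina through the adaptor BANF1. Unlike its relatives it is restricted to the testis among healthy tissues, and it is counted among the cancer-testis antigens, genes of the germline that tumours re-express.

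Each gene was read by 1 probe of 60 bases. The PLAC1 probe, A_23_P148609, was designed on transcript NM_021796 and was printed at 2 places of the array. The LEMD1 probe, A_24_P696761, was designed on NM_001001552 and was printed once. The array's annotation places them at chrX:133700080-133700139 and chr1:205350764-205350823 in build hg19, both on the minus strand. No annotation of that build was used, so that the exon each probe lies in is not given. The probe sequences are shown because every value below rests on them, and of the LEMD1 probe the first 30 bases are printed.
PLAC1 probe: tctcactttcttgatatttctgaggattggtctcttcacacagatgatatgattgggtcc
LEMD1 probe: tctacctgactgtggaaaataagtcgctgt
None of the 42404 other probes of the array shared a run of 15 bases with either.

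RefSeq lists 3 starts for PLAC1 and 1 for LEMD1 in GRCh38.p14, and which of them these cells use was not measured. The 250 bases before the start of LEMD1 and before the third PLAC1 start are shown because they are poor in CG dinucleotides, the sites of DNA methylation. The other PLAC1 starts lie before X:134764323-134764572 and X:134733637-134733886, written as the windows upstream of them. Capitals mark the TATA box (TATAAA, searched on both strands), which is present on both strands in overlap.
PLAC1, chrX:134658472-134658721, minus strand: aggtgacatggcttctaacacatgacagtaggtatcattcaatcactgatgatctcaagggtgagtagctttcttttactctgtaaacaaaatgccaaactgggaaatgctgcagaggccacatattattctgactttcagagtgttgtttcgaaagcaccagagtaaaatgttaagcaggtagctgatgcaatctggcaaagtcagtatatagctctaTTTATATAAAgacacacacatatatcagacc
LEMD1, chr1:205422057-205422306, minus strand: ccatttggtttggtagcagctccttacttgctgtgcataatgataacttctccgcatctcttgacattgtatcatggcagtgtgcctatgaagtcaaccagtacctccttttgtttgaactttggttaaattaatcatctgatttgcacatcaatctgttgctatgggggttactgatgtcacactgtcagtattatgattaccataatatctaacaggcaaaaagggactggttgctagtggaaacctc
These windows hold 1 CG each, and the other PLAC1 windows hold 3 and 1. The median over 35116 RefSeq promoter windows of the same length was 11, and 14.7% of them had at most 1. TATAAA was found in 10.7% of all windows. The E-box CACGTG, the GC box GGGCGG and CCAAT, which 6.34%, 42.6% and 32.0% of all windows hold on either strand, were found in none of the 4.

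Several facts of the arrays touch these values. The spread between arrays of 1 vector was widest in shNontarget, where the median gene differed by 0.71 on the log2 scale between the 2 arrays, against 0.11 to 0.15 in the other vectors. Control arrays lay in 1 row of the slide and knockdown arrays in the other, so that slide row and BEX2 knockdown cannot be told apart. KRT7, KRT19 and EPCAM, epithelial genes of bile duct cells, were well above background on all 8 arrays with log2 fold changes of 0.11, 0.20 and 0.06 (limma adjusted p = 0.755, 0.542 and 0.894). Of 14 marker genes of fibroblasts, endothelium, blood cells and hepatocytes, COL1A2, COL3A1, PECAM1 and ALB were not well above background on any array. COL1A1, LUM, VWF, CDH5, CD14 and CD79A were so on all 8 arrays, with CD79A the highest at a control mean of 1.34. Of the 8 markers tested, 1, CD14, was past the threshold, at 0.54 (SE 0.13, limma adjusted p = 0.0296). The mean level of these 8 markers ranged over -2.47 to -2.04 in the control and -2.48 to -2.04 in the knockdown arrays. That mean hides LUM, at 1.06 in shBEX2-1 and -1.12 in shBEX2-2 cells against control (limma adjusted p = 0.0520 and 0.0362). BEX2 itself read -3.91 to -2.70 in the control and -5.54 to -4.60 in the knockdown arrays, relative to each array's 75th percentile. Its shBEX2-1 readings, -5.21 and -5.54, were not well above background.

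PLAC1 was near the detection limit in control cells and clearly measured in both BEX2-knockdown sublines. A spot's intensity is in arbitrary units after the scanner software subtracted its background. On the control arrays the first PLAC1 spot read 22.1 and 20.9 for shControl, and 56.4 and 18.8 for shNontarget. The second spot read 21.9 and 30.6 for shControl, and 4.27 and 23.1 for shNontarget. The dimmest spots counted as well above background on these 4 arrays read 16.7 to 20.3, and 5 of the 8 PLAC1 readings were flagged as well above background.

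In BEX2-knockdown cells all 8 readings were well above background. The first spot read 64.1 and 94.1 in shBEX2-1 cells and 128 and 117 in shBEX2-2 cells. The second read 81.8 and 88.8 in shBEX2-1 cells and 133 and 109 in shBEX2-2 cells. Every knockdown reading was thus above every control reading. The nearest pair was 56.4, from the first spot of shNontarget replicate 1, and 64.1.

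**Figure D1:**
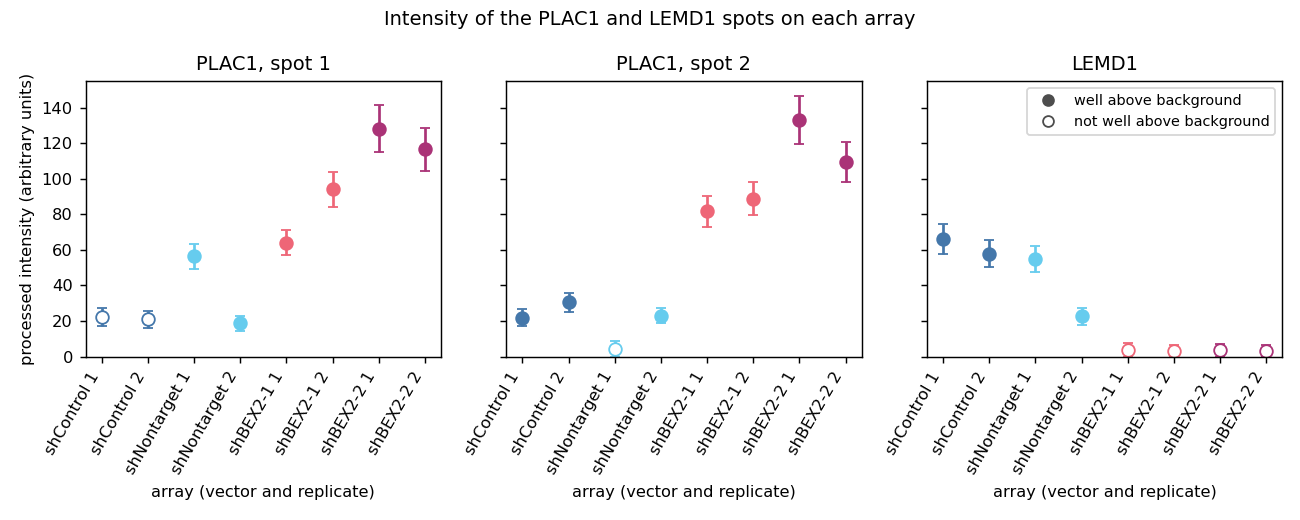
Processed intensity in arbitrary units of both PLAC1 spots and of the LEMD1 spot on each of the 8 arrays, on a linear axis from 0. Filled points were well above background, open points were not, and error bars are the scanner software's error of the reading. PLAC1 lay between 64.1 and 133 on the knockdown arrays, and LEMD1 between 22.6 and 66.1 on the control arrays against 3.36 to 3.71 on the knockdown arrays.

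The 2 PLAC1 spots of an array differed by 0.01 to 0.55 on the log2 scale on the other 7 arrays and by 3.72 on shNontarget replicate 1. On that array, 11 of 327 probes with 2 spots at a similar level, or 3.36%, had a difference at least as large, and the median difference of those probes was 0.51. The low reading there, 4.27, is a value that the software put in place of a signal at or below background.

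Relative to the 75th percentile of each array, which allows for the overall brightness of an array, the PLAC1 level was -5.05 on both shControl arrays, and -5.59 and -5.00 on those of shNontarget. It was -2.61 and -2.49 in shBEX2-1 cells and -2.24 and -2.48 in shBEX2-2 cells. The knockdown arrays lay above the control arrays without overlap, by a gap of 2.39. Of all genes tested, 22.2% were without overlap between these 2 groups, 11.5% of them higher and 10.7% lower in the knockdown. Since the gene was chosen from this contrast, nothing is read from that share.

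The mean was -5.17 ± 0.28 (SD, n = 4) in control and -2.46 ± 0.15 (SD, n = 4) in knockdown arrays. The difference was 2.72 (SE 0.16), or 6.57-fold. It was 2.62 (6.16-fold) in shBEX2-1 and 2.81 (7.02-fold) in shBEX2-2 cells, both against the same 4 control arrays. In these contrasts 7.0% and 9.67% of all genes passed the test described below.

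In the order of the 4 vectors, shBEX2-2 stood above shBEX2-1, followed by shControl and shNontarget. The sublines were 0.19 apart (SE 0.13), and the highest shBEX2-1 and the lowest shBEX2-2 array were nearly level. Over all genes, 0.00977% passed the test between sublines. The control vectors were 0.24 apart (SE 0.29) and overlapped. With 2 arrays a vector, these spreads do not settle whether either pair of neighbours differs. Between shControl and shBEX2-1 the difference was 2.50. Its SE of 0.06 rests on 2 shControl arrays that read alike, although the PLAC1 spots of shControl replicate 2 were 0.55 apart.

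The size of the PLAC1 difference, but not its direction, depended on how the dim control spots were treated. It was 2.33 with the first spot alone, 3.11 with the second alone, and 2.47 with both spots averaged before the logarithm. Against shControl, whose 2 arrays were the closer pair, it was 2.59, and against shNontarget 2.84, where the mean holds a replacement value. Without shNontarget replicate 1, the array with that value, it was 2.58. Since 3 of the 8 control readings were not well above background, the fold is no firmer than these values. With a model-based background correction that adds 50 units to every spot, it was 1.29.

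LEMD1 ran the other way. It was well above background on all 4 control arrays and on none of the 4 knockdown arrays. Its spot read 66.1 and 57.9 for shControl, 54.8 and 22.6 for shNontarget, 3.71 and 3.36 for shBEX2-1, and 3.52 and 3.39 for shBEX2-2. All 4 knockdown readings are replacement values, so that their order carries nothing. Before any correction the spot's mean signal was 60.4 to 103 on the control arrays and 43.0 to 46.1 on the knockdown arrays, over a local background of 23 to 26 and 21 to 23.

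Relative to each array's 75th percentile, LEMD1 was at -3.46 and -3.86 in shControl and at -3.77 and -4.88 in shNontarget cells. The knockdown arrays gave -6.89 and -7.26 for shBEX2-1 and -7.45 and -7.54 for shBEX2-2. The means were -3.99 ± 0.61 (SD, n = 4) and -7.29 ± 0.29 (SD, n = 4), a measured difference of -3.29. That figure rests on replacement values and is not a fold change of the RNA.

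Set against the dimmest spots well above background on each array, LEMD1 had a bound of 2.52-fold lower in BEX2-knockdown than in control cells. The bound is nominal and not a strict minimum, since undetected spots can read above the dimmest detected one. PLAC1 spots of 22.1 and 20.9 did so on shControl replicates 1 and 2. The bound was 2.19-fold for shBEX2-1 and 2.90-fold for shBEX2-2. It was 3.17-fold with shControl alone as the control and 2.00-fold with shNontarget alone, where replicate 2 read lowest of the control arrays. Between single vectors it ran from 1.74-fold for shBEX2-1 against shNontarget to 3.65-fold for shBEX2-2 against shControl. The control vectors overlapped, and shControl lay 0.66 above shNontarget. With the correction that adds 50 units to each spot, the LEMD1 difference was -0.32 and its bound 0.18 on the log2 scale.

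**Figure D2:**
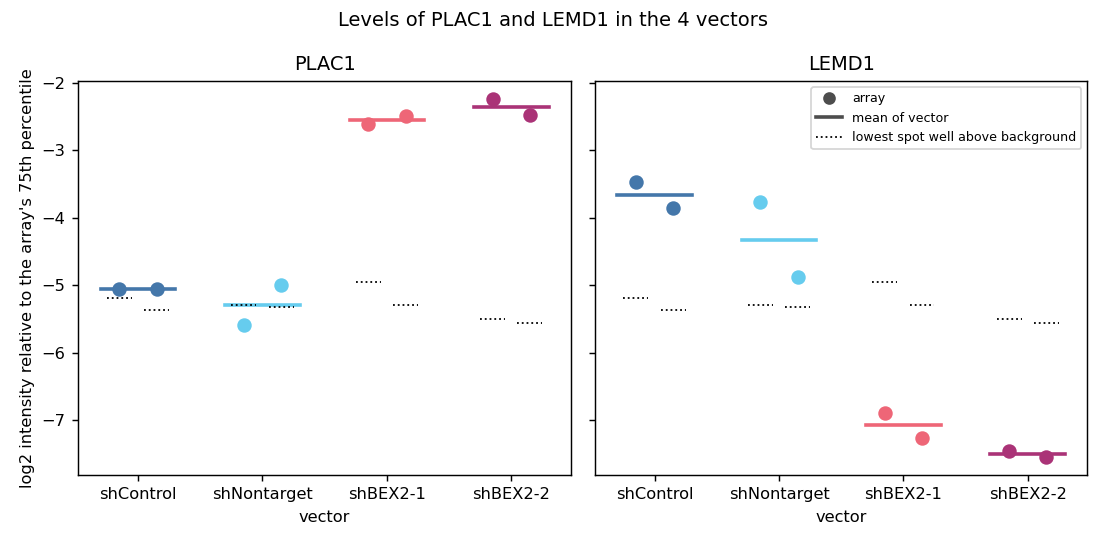
Log2 intensity relative to each array's 75th percentile for PLAC1 and LEMD1 in the 4 vectors, with 1 point per array, a bar at each vector's mean, and a dotted mark at the dimmest spot well above background on that array. PLAC1 lay near these marks in the control vectors and 2.39 or more above its control arrays in the knockdown, while LEMD1 lay above the marks in the control vectors and below them in the knockdown.

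Across the 8 arrays the levels of both genes ran in opposite directions, with Pearson's r = -0.97, which reflects the 2 groups and was given by the choice of the genes. Over the 4 control arrays alone r was -0.32. In RNA of whole cultures, fewer cells with a transcript and less of it per cell cannot be told apart, and this holds for each level given here.

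The genes with the profile most like PLAC1 over the 8 arrays were HELLS (r = 0.993), FANCL (0.992), OPA3 (0.991), CDK2 (0.990) and CEP78 (0.990). HELLS encodes a chromatin remodeller of the SNF2 family, FANCL the ubiquitin ligase of the Fanconi anaemia pathway, OPA3 a mitochondrial protein, CDK2 a kinase of S phase and CEP78 a centrosomal protein. HELLS ran from -1.23 to -0.62 on the control arrays and from 0.99 to 1.50 on the knockdown arrays. Their log2 fold changes lay between 0.53 for OPA3 and 2.18 for HELLS, all under that of PLAC1. OPA3 was read by its brightest probe and did not pass the test when its probes were averaged (limma adjusted p up to 0.470 over all alternatives). In total 672 of 20447 genes had an r above 0.9 with PLAC1, so that these 5 are the top of a broad group that separates the 2 kinds of arrays.

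For LEMD1 the closest were C11orf46 (r = 0.995), RPS6KA2 (0.991), STEAP1 (0.990), ST6GALNAC2 (0.988) and MED17 (0.988), and 660 genes exceeded 0.9. RPS6KA2 encodes a kinase downstream of ERK, STEAP1 a membrane protein of the metalloreductase family, ST6GALNAC2 a sialyltransferase and MED17 a subunit of Mediator. Their log2 fold changes lay between -0.67 and -1.60. All were well above background on every array, which LEMD1 was not, so that the likeness to LEMD1 rests in 4 of the arrays on replacement values.

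**Figure D3:**
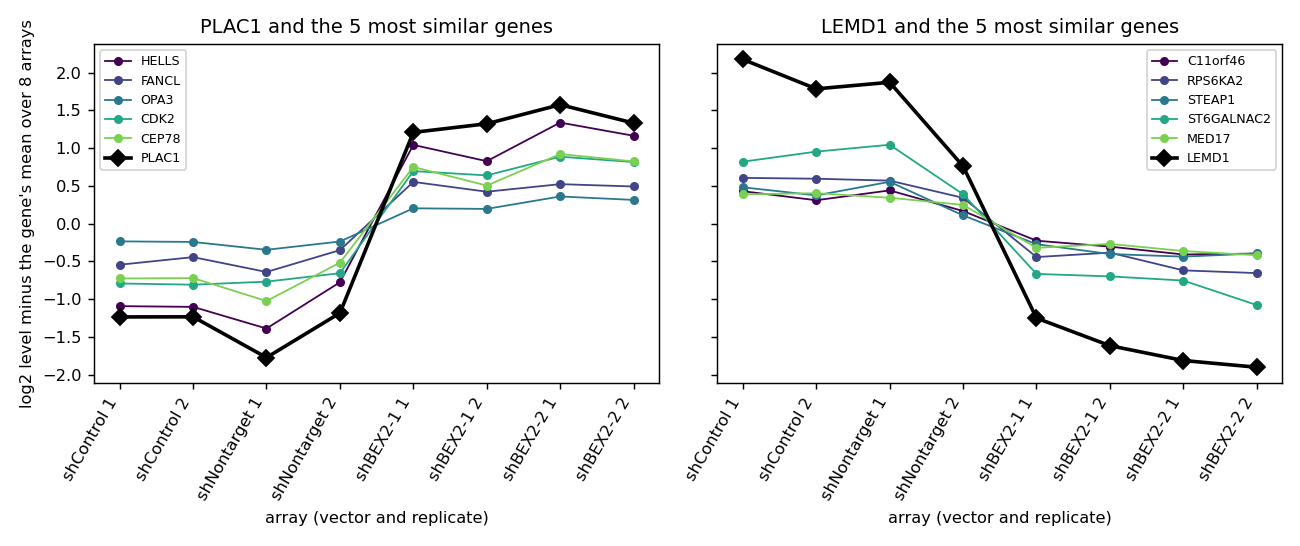
Log2 level minus the gene's own mean over the 8 arrays for PLAC1 (left) and LEMD1 (right), in black, and for the 5 genes with the highest Pearson's r with each, in colour; lines join the arrays of a gene as a guide only. Each set steps between the control and the knockdown arrays, and the LEMD1 points of the knockdown arrays are replacement values.

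Beside PLAC1, 53 other genes of the trophoblast were listed. Of these, 46 were on the array and 18 were tested. Among the 18, 4 rose, 1 fell and 13 did not pass the test in BEX2-knockdown cells, where 12.9% of all genes tested passed it, 6.68% higher and 6.26% lower (limma, Benjamini-Hochberg adjusted p under 0.05). The median log2 fold change of the 18 was 0.51, against 0.03 over all genes. The 18 include INSL4, well above background on 1 control and 4 knockdown arrays, which reached the filter through the knockdown. The median is therefore not free of the filter, and nothing is read from it. A further 19 were not well above background on any array, among them genes of the pregnancy-specific glycoproteins and ELF5 and HAND1, transcription factors of the trophoblast.

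TFPI2, a protease inhibitor made by the syncytiotrophoblast, read -2.18 to -0.52 in the control arrays and 0.53 to 1.03 in the knockdown arrays, a rise of 3.94-fold (log2 1.98, SE 0.33, limma adjusted p = 0.00659). INSL4, a placental hormone of the insulin family, read -5.41 to -3.79 in the control arrays and -3.39 to -3.01 in the knockdown arrays and was among the 4 that passed as higher. It was well above background on 1 control array and on all 4 knockdown arrays, so that it entered the test through the knockdown and no fold is given. KISS1, the kisspeptin precursor, rose by 0.73 (SE 0.18, limma adjusted p = 0.0319), and MFSD2A, a lipid transporter that is also a syncytin receptor, by 0.95 (SE 0.27, limma adjusted p = 0.0490).

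The beta subunit of chorionic gonadotropin, the hormone of early pregnancy, went the other way. The probe named CGB read 1.63 to 2.36 in the control arrays and 0.58 to 0.80 in the knockdown arrays, a fall by 1.29 on the log2 scale (SE 0.18, limma adjusted p = 0.00296). CGB has near-identical copies that the probe may not separate. The common alpha subunit, CGA, was well above background on 1 array only and was not tested. Among the placental genes whose call held in all 18 alternative fits, TFPI2 thus rose and CGB fell.

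Calls in this list leaned on single arrays. The list fell to 2 calls when shControl replicate 1 was left out, and reached 7 when shNontarget replicate 1 was. The call of INSL4 was lost without either shControl or either shBEX2-2 array, with an adjusted p of up to 0.170 over all alternatives, while TFPI2 passed in all 18 alternative fits. KISS1 and MFSD2A were each lost without any of several arrays, including both shControl arrays, with adjusted p of up to 0.164 and 0.318.

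Germline genes of the cancer-testis class, to which LEMD1 belongs, were mostly not measurable. Of 73 listed, 64 were on the array, 32 of these were not well above background on any array, and 16 were tested. Of the 16, 3 passed as higher and 13 did not pass the test, with a median of 0.32, where 6.68% of all genes passed as higher. The 16 include CABYR and SSX5, each well above background on 1 control and 3 knockdown arrays, and MAGEB2, on 3 and 1. This median too is not free of the filter. With shControl as the only control, 5 of the 16 passed as higher and 3 as lower. With shNontarget as the only control, 0 of them passed.

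CSAG1 and CSAG2, neighbouring genes of the X chromosome known from chondrosarcoma, rose by 1.65 (SE 0.37, limma adjusted p = 0.0216) and 1.87 (SE 0.36, limma adjusted p = 0.0111). CSAG2 read -5.52 to -4.87 on the control arrays, -2.57 and -2.62 in shBEX2-1 and -3.70 and -4.02 in shBEX2-2 cells. The fold change was the larger in shBEX2-1 for both, 2.31 against 0.98 and 2.50 against 1.24, but the difference between sublines did not pass the test (limma adjusted p = 0.133 and 0.244). CABYR, a calcium-binding protein of the sperm tail, was the third that passed, with -6.40 to -4.96 on the control arrays and -4.90 to -4.02 on the knockdown arrays. It was well above background on 1 control and 3 knockdown arrays, so that it entered the test mainly through the knockdown and no fold is given.

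The call of CSAG1 was lost without shControl replicate 1 or either shBEX2-1 array, with an adjusted p of up to 0.0944 over the alternatives, and that of CABYR without any one of both shControl and all knockdown arrays, with up to 0.307. The count of the list ran from 1 without shControl replicate 1 to 7 without shNontarget replicate 1.

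A second kind of cancer-testis antigen consists of genes of mitosis and the cell cycle, which dividing cells also express. All 8 of these rose, with a median log2 fold change of 1.51, beside 6.68% of all genes that rose. ATAD2, a bromodomain ATPase, rose by 1.93 (SE 0.23, limma adjusted p = 0.00160). KNL1, a kinetochore scaffold that the array names CASC5, rose by 1.89 (SE 0.22, limma adjusted p = 0.00151), and CEP55, a protein of cell abscission, by 1.74 (SE 0.24, limma adjusted p = 0.00309). The count was 7 without shControl replicate 1 and 3 with shNontarget as the only control.

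**Figure D4:**
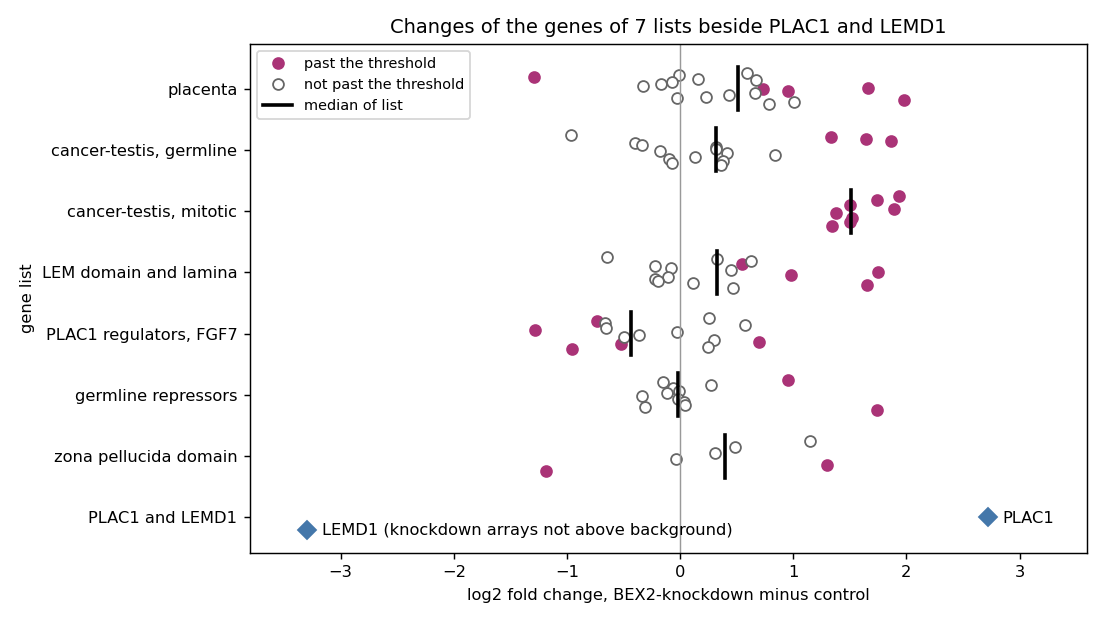
Log2 fold change, BEX2-knockdown minus control arrays, of each tested gene of 7 lists, with 1 point per gene, filled where the limma adjusted p was under 0.05, and a bar at the median of the list; points are spread vertically only to separate them, and PLAC1 and LEMD1 are diamonds without a test. The 8 mitotic genes all lay above 1.3, the germline genes between -0.96 and 1.87, and PLAC1 lay above the range of every list; LEMD1 is drawn at its measured difference on replacement values.

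In the LEM-domain family and its partners at the nuclear lamina, the genes that passed the test rose. Of 16 genes, 15 were tested, 4 rose and 11 did not pass the test, with a median of 0.32, beside 6.68% of all genes that rose. LMNB1 and LMNB2, the B-type lamins, rose by 1.75 (SE 0.23, limma adjusted p = 0.00238) and 0.98 (SE 0.13, limma adjusted p = 0.00265). TMPO, a LEM-domain protein that binds them, read -2.27 to -1.94 in the control arrays and -0.73 to -0.18 in the knockdown arrays, a rise by 1.65 (SE 0.15, limma adjusted p = 0.000827).

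The lamin B receptor LBR rose by 0.55 (SE 0.14, limma adjusted p = 0.0367). The other LEM-domain genes named with LEMD1 did not pass the test, with EMD, or emerin, at 0.63 (SE 0.21, limma adjusted p = 0.0883), LEMD2 at -0.22 (SE 0.14, 0.348) and LEMD3 at -0.08 (SE 0.15, 0.781). All 15 tested genes of this list were well above background on all 8 arrays, unlike LEMD1. The count of calls was 3 without shControl replicate 1, 8 without shNontarget replicate 1 and 1 with shNontarget as the only control. The call of LBR was lost without either shControl array, shBEX2-1 replicate 1 or either shBEX2-2 array, with an adjusted p of up to 0.295.

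Genes known to act on PLAC1 transcription, with the growth factor FGF7 that is known to induce it, went both ways. Of 14, all tested, 1 rose, 4 fell and 9 did not pass the test, with a median of -0.43, beside 12.9% of all genes that passed. FGFR2, a receptor of the FGF7 pathway, read -0.93 to -0.72 on the control arrays and -2.24 to -1.90 on the knockdown arrays, a fall by 1.28 (SE 0.13, limma adjusted p = 0.00110). FGF7 was at -0.65 (SE 0.27, limma adjusted p = 0.155). CEBPB, a leucine zipper factor that binds a PLAC1 promoter, fell by 0.73 (SE 0.14, limma adjusted p = 0.00933), and the nuclear receptor RXRA fell by 0.52 (SE 0.13, limma adjusted p = 0.0335).

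RB1, the retinoblastoma protein, rose by 0.70 (SE 0.15, limma adjusted p = 0.0160). The call of RB1 was lost without shBEX2-1 replicate 1 or shBEX2-2 replicate 1 (adjusted p up to 0.105), and that of RXRA without either shControl or any knockdown array (adjusted p up to 0.244). Leaving out shBEX2-2 replicate 1 brought this list to 2 calls, and leaving out shNontarget replicate 1 to 7. With the rank product it was 1.

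Among 12 repressors of germline genes, all tested, 2 rose and 10 did not pass the test, with a median of -0.02, beside 12.9% of all genes that passed, so that the share is not far from that of all genes. UHRF1, which brings the maintenance DNA methyltransferase to newly copied DNA, read 0.04 to 0.54 on the control arrays and 1.98 to 2.15 on the knockdown arrays, a rise by 1.74 (SE 0.14, limma adjusted p = 0.000619). DNMT1, that methyltransferase, rose by 0.96 (SE 0.15, limma adjusted p = 0.00512). The 10 others, among them E2F6, SETDB1 and EHMT2, had log2 fold changes between -0.34 and 0.27.

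Of 15 genes with a zona pellucida domain or a PLAC1-like fold, 6 were tested, 1 rose and 1 fell, beside 12.9% of all genes that passed. Both encode proteins of the egg coat. ZP1 rose by 1.30 (SE 0.30, limma adjusted p = 0.0231) and ZP3 fell by 1.18 (SE 0.19, limma adjusted p = 0.00579). ZP1 did not pass without either shControl or either shBEX2-2 array (adjusted p up to 0.153). OOSP2, a relative of PLAC1 that the array lists as PLAC1L, was at background on all 8 arrays.

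Near PLAC1 and LEMD1, 1 of 10 and 1 of 21 tested genes passed the test, beside 12.9% of all genes. Within 500 kb of the PLAC1 probe the array held 18 other gene names, of which 10 were tested, 1 fell and 9 did not pass the test, with a median of 0.05. The nearest tested neighbours, noncoding RNAs 17.0 to 22.7 kb away, lay between -0.30 and 0.30. HPRT1, a purine salvage enzyme 65.6 kb away, was at 0.85 (SE 0.28, limma adjusted p = 0.0773). MOSPD1, a membrane protein 322 kb away, fell by 1.02 (SE 0.20, limma adjusted p = 0.0108), a call lost when its probes were averaged and with shNontarget as the only control (adjusted p up to 0.143 over all alternatives).

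Within 500 kb of the LEMD1 probe lay 30 other names, of which 21 were tested, 1 rose and 20 did not pass the test, with a median of 0.37. By the array's annotation the nearest tested were the probes named SNRPG and A_32_P10100, which overlap 30.2 kb away, at 0.80 and 0.83. Whether they read RNA made at that place was not tested. Tested noncoding RNAs 53.3 to 63.5 kb away lay between -0.94 and 1.03. None of these passed the test. With shControl as the only control each did, except the noncoding RNA 60.1 kb away. That RNA passed in none of the 18 alternative fits (lowest limma adjusted p = 0.255). The gene that rose was an unnamed one, probe A_33_P3375496, 337 kb away and near NUCKS1, at 1.05 (SE 0.19, limma adjusted p = 0.00775). NUCKS1, a nuclear protein of DNA repair, was at 0.73 (SE 0.21, limma adjusted p = 0.0508). LOC284576, which RefSeq names LEMD1-AS1 and whose probe lies 5.58 kb from that of LEMD1 on the other strand, was at background on all 8 arrays.

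**Figure D5:**
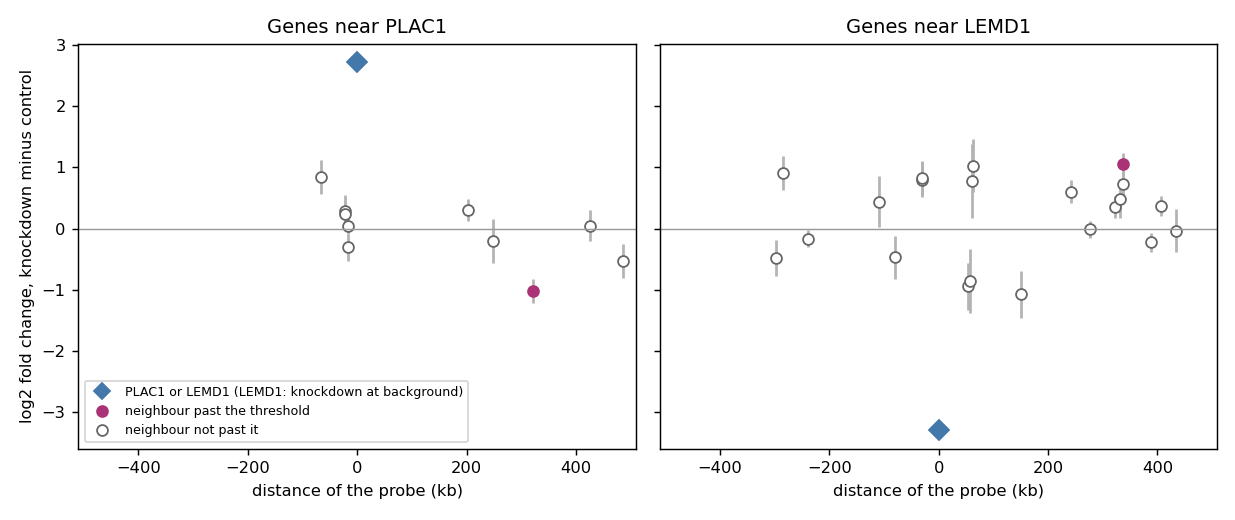
Log2 fold change, BEX2-knockdown minus control arrays, against the distance in kb from the probe of PLAC1 (left) or LEMD1 (right), for each tested gene within 500 kb, with bars of 1 standard error, filled where the limma adjusted p was under 0.05. The diamonds are PLAC1 at 2.72 and LEMD1 at -3.29, the latter a measured difference on replacement values and not a fold change, and the neighbours lay between -1.07 and 1.05.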

How the data were processed

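Total RNA of 8 HuCCT1 samples was labelled with Cy3 by the authors and hybridised to 1 slide of Agilent design 028004, 1 array each. The deposited processed intensity of each spot was made by the authors with Agilent Feature Extraction 10.7.3.1, per the file headers background-subtracted and not scaled between arrays, with surrogates in place of low values. No spot was saturated, and 59.8% to 64.6% of spots were well above background. The other deposited values used are the flags, mean signal, local background and software error of each spot.

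Here, log2 intensity minus the array's 75th percentile was taken. Spots of a probe were averaged, a probe counted as well above background where at least 50% of its spots were, genes so on at least 4 arrays were tested, and the brightest probe stood for a gene. limma 3.58.1 in R 4.3.3 (lmFit, eBayes with trend) compared 4 knockdown with 4 control arrays, and a model of 4 vectors gave the sublines; fits were tested on simulated data. A bound sets the bright group's mean against the mean, per array, over arrays of either the dim probe's level or the level of the array's lowest single spot well above background, whichever is higher. Of 217 listed genes, 201 were matched to the array. PLAC1, LEMD1, the gene lists and the tests were chosen with earlier results of these data known. In lists with at most 5 calls all called genes are named, except 1 that is not reported here, and in others the 3 largest. The number of arrays limits the precision. The study's CD274 arrays were not used here. Python 3.11.15 with pandas 2.3.3, numpy 2.4.6 and matplotlib 3.10.9 read the files and drew the plots.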

Additional observations from a re-analysis of the deposited data

Results flagged for a closer look

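In 14 of 152 groups of 4 arrays examined (76 genes, control and knockdown arrays apart), 1 array stood apart from the other 3 by Dixon's test on its gap as a share of the group's range, which chance gives in about 1 of 20 groups. For PLAC1 in the control arrays the share was 0.912, from shNontarget replicate 1 at -5.59 against -5.05 to -5.00, the array on which its 2 spots disagreed.

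In 11 other groups of control arrays a shNontarget array stood apart. The shares were 0.883 for CASC5, 0.858 for LMNB1, 0.893 for KRT8, 0.933 for OPA3, 0.863 for RPS6KA2, 0.897 for SLC41A1, 0.893 for FAM122C, 0.925 for KRT19 and 0.912 for EPCAM. For 2 noncoding RNAs near LEMD1 they were 0.847 and 0.858. The remaining groups were KISS1 in the control arrays, with 0.903 from shControl replicate 1, and LOC100131354 in the knockdown arrays, with 0.929 from shBEX2-1 replicate 1 at -5.62 against -4.81 to -4.74. LMNB1 read 0.24 on shNontarget replicate 1 against -0.71 to -0.57 on the other control arrays.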

How the results depend on the processing

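Of 187 alternative values, 144 stayed within a tolerance (a count within 1.5 times, a difference within 1 SD), 43 moved beyond it and 0 reversed. PLAC1 moved to 1.29 with normexp, to 2.47 with spots averaged on the linear scale, and to 2.33 and 3.11 with each spot alone, and LEMD1 to -0.32, its bound to 0.18, with normexp. Leaving out 1 array gave PLAC1 2.58 to 2.77, LEMD1 -3.59 to -3.12 and its bound 1.16 to 1.63. With the same samples left out, counts of calls ran from 2 to 7 for placental, 1 to 7 for germline, 7 to 8 for mitotic, 3 to 8 for lamina, 2 to 7 for PLAC1 regulator, 2 to 2 for repressor and 1 to 3 for zona pellucida genes.

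With only shControl as control the counts were 8 placental, 8 germline (5 higher, 3 lower), 8 lamina and 9 PLAC1 regulator genes. With only shNontarget they were 2, 0, 3 mitotic, 1 and 1, with 1 repressor and 0 zona pellucida genes. The rank product gave 3 placental, 2 lamina, 1 regulator, 1 repressor and 0 zona pellucida genes, Student's test 1 germline and 1 zona pellucida gene, and normexp 4 zona pellucida genes. Over all genes calls numbered 2648, and between 340 with only shNontarget and 6842 with only shControl, 858 with the rank product, and 1243 without shBEX2-2 replicate 1 to 4728 without shNontarget replicate 1; the cause was not tested.

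The titles number the arrays of each vector 1 and 2. Arrays of the same number correlated between -0.06 and 0.26 in their deviations, so that they were not treated as pairs. With the replicate block, PLAC1 stayed at 2.72 and LEMD1 at -3.29 by construction, and the calls over all genes numbered 2456. Of the genes named, MFSD2A and CABYR were then not called, and NUCKS1 and EMD were. Signal over background limits LEMD1 in the knockdown and PLAC1 in the control arrays.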
